A study of Mus musculus with 48 samples.

Results

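Mitochondria import nearly all of their proteins from the cytosol, and the genes examined here are those of the machinery that does so. The 41 genes were taken by symbol: the TOM complex of the outer membrane and its cofactor Tomm34, the small TIM chaperones of the intermembrane space, the TIM23 and TIM22 translocases of the inner membrane, the SAM complex, the PAM motor, the MIA pathway, the peptidases that remove targeting signals, and the matrix chaperonin. They are 41 of the 50600 genes listed in the count files. A filter on low counts left 13889 genes to be tested, and 40 of the 41 passed it.

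The cells were mPDAC, a mouse pancreatic ductal adenocarcinoma line that the labels describe as FVB/N x C57BL6 and 8 weeks old. Cultures N6L 1, 2 and 3 received 50 µM N6L, a pseudopeptide that binds nucleolin, for 48 h, and cultures NT 1, 2 and 4 were left non-treated. From the lysate of each culture, RNA was taken from the cytoplasm and from the pooled polysomes, the part of the cytoplasm that sediments with several ribosomes, so that there were 3 cultures in each of 4 groups and 12 libraries. All cells, treated or not, received the elongation inhibitor emetine before lysis, and nuclei and mitochondria were spun out of the lysates. Polyadenylated RNA was sequenced, and the files held raw counts.

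The 12 libraries held 19519911 to 44972333 counts. Levels are given below as CPM, the counts of a gene as a share of the counts of its library, scaled by the TMM method, so a fall of all mRNAs alike would not appear in them, and in such bulk RNA fewer cells expressing a gene and less RNA per cell cannot be told apart. The ductal markers Krt8, Krt18, Krt19, Epcam, Sox9, Cdh1, Muc1 and Cldn4 summed to 6370 to 10500 CPM per library, and 6 of the 8 passed the filter. Epcam and Cldn4 did not, with at most 10 and 4 counts in a library. Fibroblast, immune and endothelial markers summed to at most 2.38 CPM, and Ins1, Ins2 and Gcg of islets had no count. Of the acinar markers, Amy2a5, Cpa1 and Ptf1a had no count and Cela1 carried the sum of 27.6 to 82.7 CPM. The mRNA of nucleolin itself, Ncl, changed by -0.11 ± 0.31 (log2, SE) in the cytoplasm with N6L (edgeR, adjusted p = 0.812) and by -0.8 ± 0.31 in the polysomes (adjusted p = 0.122). Polysomes against cytoplasm, Ncl stood at -1.3 ± 0.32 in N6L cells (adjusted p = 0.00837) and at -0.61 ± 0.31 in NT cells (adjusted p = 0.416). The difference between these ratios did not pass the limit (adjusted p = 0.559). The summed level of the nuclear RNAs Malat1, Neat1 and Kcnq1ot1 was 77.9 to 129 CPM in the NT cytoplasm and 197 to 230 CPM in the N6L cytoplasm. Neat1 carried this difference, with means of 38.0 and 153 CPM, while the means were 58.2 and 63.8 CPM for Malat1 and 1.11 and 1.33 CPM for Kcnq1ot1. Transcripts of the mitochondrial genome made up 0.454 to 0.966% of the NT cytoplasm and 0.121 to 0.242% of the N6L cytoplasm.

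Precursors meet receptors and the pore of the TOM complex first. Those with a cleavable presequence go on through TIM23 and are pulled into the matrix by the PAM motor, where the processing peptidase cuts them and the chaperonin folds them. Carrier proteins are handed by the small TIM chaperones to TIM22, barrel proteins to SAM, and small cysteine-rich proteins are trapped in the intermembrane space by the MIA disulfide relay. Most mitochondrial proteins made in the cytosol, subunits of the respiratory chain and of the mitochondrial ribosome among them, depend on these routes.

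The promoter windows of 4 members are shown because these were the members lower with N6L in both the cytoplasm and the polysomes. Each runs from 250 bases before to 50 bases after the start of the RefSeq gene (build GRCm38.p6), 300 bases, and is written 5′ to 3′ on the strand of the gene. Capitals mark matches to the motifs described after them. They are chr1:55087898-55088197 on the plus strand for Hspe1, chr7:19715380-19715679 on the minus strand for Tomm40, chr12:71136626-71136925 on the minus strand for Timm9 and chr6:91473374-91473673 on the minus strand for Chchd4.
Hspe1: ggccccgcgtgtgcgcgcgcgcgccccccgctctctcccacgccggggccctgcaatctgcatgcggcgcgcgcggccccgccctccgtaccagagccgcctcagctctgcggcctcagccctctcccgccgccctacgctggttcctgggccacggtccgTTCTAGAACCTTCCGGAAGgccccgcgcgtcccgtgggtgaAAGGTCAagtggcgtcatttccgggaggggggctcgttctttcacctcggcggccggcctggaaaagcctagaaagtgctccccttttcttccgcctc
Tomm40: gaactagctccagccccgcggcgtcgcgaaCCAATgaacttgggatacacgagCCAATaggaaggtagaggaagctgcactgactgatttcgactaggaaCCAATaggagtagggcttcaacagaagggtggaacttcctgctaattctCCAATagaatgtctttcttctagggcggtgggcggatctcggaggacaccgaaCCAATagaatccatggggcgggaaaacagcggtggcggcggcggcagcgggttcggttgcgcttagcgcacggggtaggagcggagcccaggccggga
Timm9: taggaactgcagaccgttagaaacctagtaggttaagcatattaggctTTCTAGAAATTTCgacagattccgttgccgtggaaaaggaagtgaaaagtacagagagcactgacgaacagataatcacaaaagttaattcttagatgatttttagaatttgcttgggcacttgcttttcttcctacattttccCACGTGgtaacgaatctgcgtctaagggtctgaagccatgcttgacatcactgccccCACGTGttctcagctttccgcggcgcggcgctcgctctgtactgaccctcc
Chchd4: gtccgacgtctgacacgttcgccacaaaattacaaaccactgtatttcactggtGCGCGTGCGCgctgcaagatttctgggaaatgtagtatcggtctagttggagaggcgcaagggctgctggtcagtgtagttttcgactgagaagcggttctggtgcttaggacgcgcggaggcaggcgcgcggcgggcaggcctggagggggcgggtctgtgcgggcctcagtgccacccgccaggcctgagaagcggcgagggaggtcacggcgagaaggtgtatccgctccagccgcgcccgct

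Hspe1 and Hspd1 lie on opposite strands and overlap at their starts, and RefSeq gives Hspd1 a start within the window shown and another beyond its end. The Hspe1 window held the heat shock element (3 units of GAA or its complement, each 2 bases apart) from 89 bases before the Hspe1 start, overlapping CCGGAAG, the core bound by ETS factors such as GABPA, and AAGGTCA, the site of estrogen-related receptors, from 48 bases before it. The Timm9 window held the heat shock element too and the E-box CACGTG at 2 places, the Chchd4 window 1 match to the palindrome of NRF1, and the Tomm40 window 5 copies of CCAAT, a motif added after this window had been seen. As many CCAAT copies were found in 57 of the 10092 tested genes with a window (0.565%), and among members in Tomm40 alone.

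Windows were found for 36 of the 41 members, 35 of them tested. On either strand, CCGGAAG was in 16 of the 35 (45.7%) against 20.3% of the 10092 genes, the heat shock element in 3 (Hspd1, Hspe1 and Timm9; 8.57% against 0.545%), AAGGTCA in 5 (14.3% against 3.79%), the NRF1 palindrome in 5 (14.3% against 11.5%), AAGATGGCG of YY1 in 3 (8.57% against 3.53%), CCAAT in 11 (31.4% against 43.2%) and CACGTG in 5 (14.3% against 11.6%). TGATGCAA, a C/EBP and ATF site, was in none of the 35 and in 0.753% of all. Of the 20 members with a window that fell in the cytoplasm, 7 held CCGGAAG. The matches of Hspd1 and Hspe1 to the ETS core, the estrogen-related receptor site and the heat shock element are the same bases seen from overlapping windows, so that 1 place counts for 2 members in each of these shares. These are matches of letters in a window, not measured binding.

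The question of the first comparison was how the amount of each mRNA in the cytoplasm changed with N6L. Of the 40 members tested, 21 were lower and none higher at an adjusted p below 0.05 (edgeR, adjusted over all 13889 genes), where 13.8% of all genes tested were lower and 14.5% higher (28.3% in either direction). An unadjusted p below 0.05 was found for 29 members (42.5% of all genes), 28 of them lower and Timm29 higher, and DESeq2 called 26 lower and none higher. The value was below 0 for 35 members (47.2% of all genes) and above 0 for 5 (52.8%). The median log2 change of the members was -0.60, and that of all genes 0.04. For 30 members every N6L culture lay below every NT culture (25.6% of all genes), and for Timm29 and Grpel2 every N6L culture lay above (29.3%). For Grpel2 the highest NT culture and the lowest N6L culture were both at 117 CPM after rounding. In the order of import, the members lower were 4 of 7 of the TOM complex, all 6 small TIM chaperones, 2 of 5 of TIM23, neither of TIM22, 2 of 3 of SAM, 3 of 7 of PAM, both of MIA, 1 of 4 peptidases and 1 of 2 chaperonin genes.

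**Figure D1:**
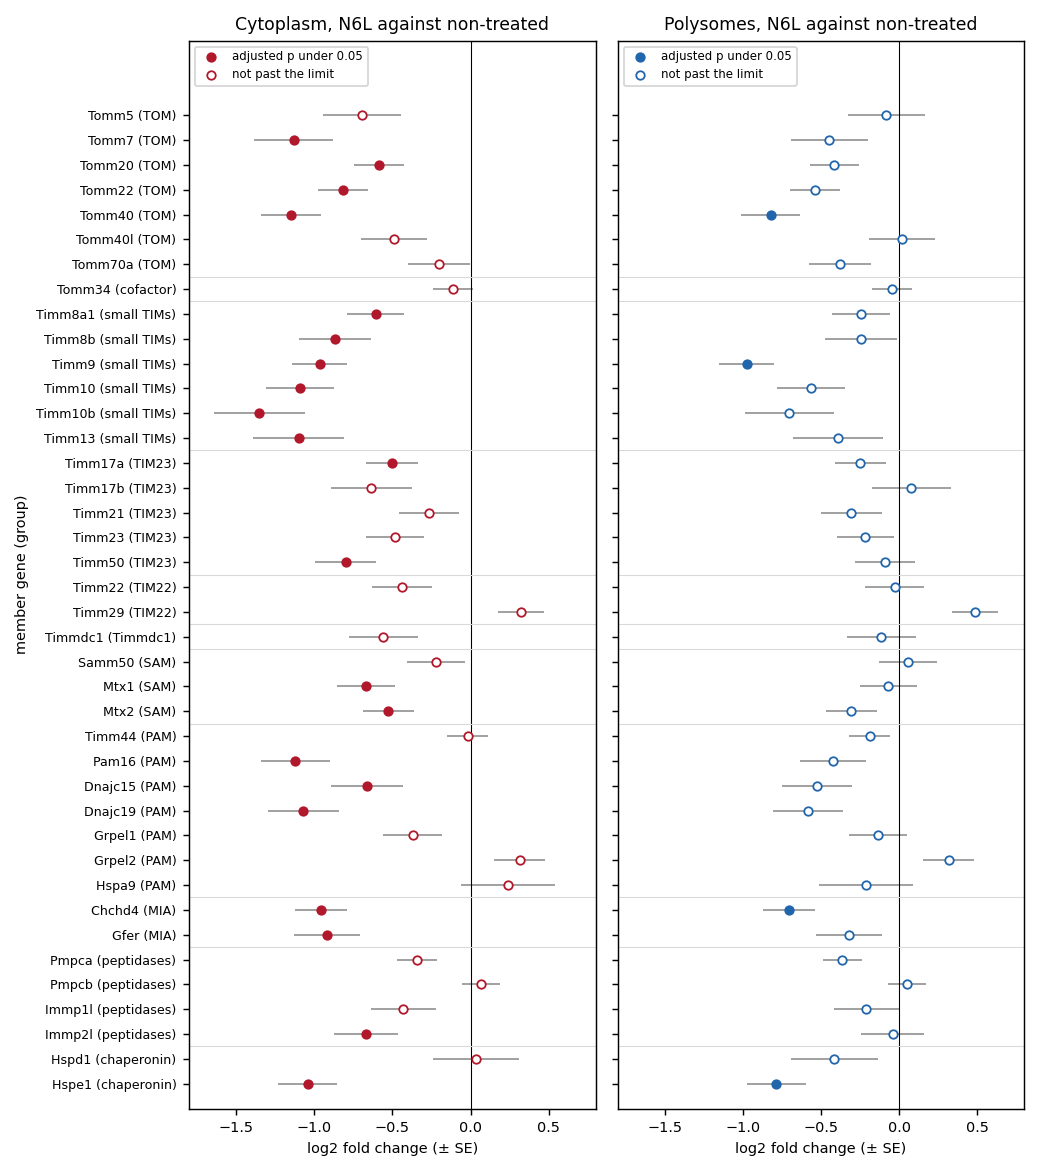
The log2 fold change between N6L and non-treated cultures is plotted for each of the 40 members tested, with its standard error, in the cytoplasm (left) and the polysomes (right), and filled points are past an adjusted p of 0.05. In the cytoplasm 21 points are filled, all left of 0, and in the polysomes 4.

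In each sentence that follows, NT values are those of cultures 1, 2 and 4 and N6L values those of cultures 1, 2 and 3, in CPM. Tomm40, the barrel that forms the pore of the outer membrane, stood at 188, 181 and 244 in the NT cytoplasm and at 95.3, 83.1 and 97.8 in the N6L cytoplasm. The 6 values did not overlap, and Tomm40 fell by 1.15 ± 0.19 (log2, SE; adjusted p = 0.0019), the smallest p of all members. Tomm22, the receptor that holds the complex together, stood at 288, 259 and 307 with NT and at 164, 159 and 162 with N6L, a change of -0.82 ± 0.16 (adjusted p = 0.00407). For Tomm7, a small subunit, 141, 118 and 228 compared with 71.4, 74.1 and 76.9, a change of -1.13 ± 0.25 (adjusted p = 0.00679). Tomm7 was one of several short members for which NT culture 4 lay well above NT cultures 1 and 2. The presequence receptor Tomm20 fell by 0.59 ± 0.16 on the log2 scale. Tomm5, a further small subunit, changed by -0.69 ± 0.25 without passing the test (adjusted p = 0.0513), and the receptor of carrier precursors, Tomm70a, by -0.20 ± 0.20. Tomm40l, the paralog of Tomm40, stood at 52.9, 61.2 and 64.4 with NT and 42.9, 39.3 and 45.1 with N6L, without overlap, and missed the limit as well (-0.49 ± 0.21, adjusted p = 0.0921). Tomm34, a cytosolic cofactor that works with heat shock proteins, changed by -0.11 ± 0.13. Tomm6 was the member below the filter, at 0.0784 to 0.318 CPM in the 12 libraries. It overlaps another annotated gene on the same strand, Gm21981, which had no count. How reads that fall in both genes were counted is not given in the sources used here, which leaves the level of Tomm6 uncertain.

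The small TIM chaperones carry hydrophobic precursors across the intermembrane space, Timm9 with Timm10 in one ring and Timm8a1 with Timm13 in another. They were the one group of more than 2 members that was lower throughout, with a median of -1.03. Timm9 stood at 70, 64.6 and 95 in the NT cytoplasm and 39.8, 39.7 and 38 in the N6L cytoplasm, a change of -0.97 ± 0.18 (adjusted p = 0.00284). Its partner Timm10 went from 61.5, 62.7 and 91.3 to 31.2, 33.6 and 36.3, which is -1.09 ± 0.22 (adjusted p = 0.00421). Timm10b, which works with TIM22, had the largest change of all members, from 11.5, 9.62 and 22 to 5.41, 5.73 and 5.7 (-1.35 ± 0.29, adjusted p = 0.0059), with NT culture 4 at the top by a wide gap, and overlaps another annotated gene on its strand, Gm45799. The 3 treated cultures of each of these genes lay close together, and the spread was in the NT cultures. Timm8b stood at 116, 104 and 161 with NT and 60.4, 71.9 and 77 with N6L (-0.87 ± 0.23). Timm8a1, at a lower level, stood at 12, 9.49 and 9.66 against 6.51, 7.99 and 5.95 (-0.61 ± 0.18). Timm13 was 2.14-fold lower (adjusted p = 0.015).

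**Figure D2:**
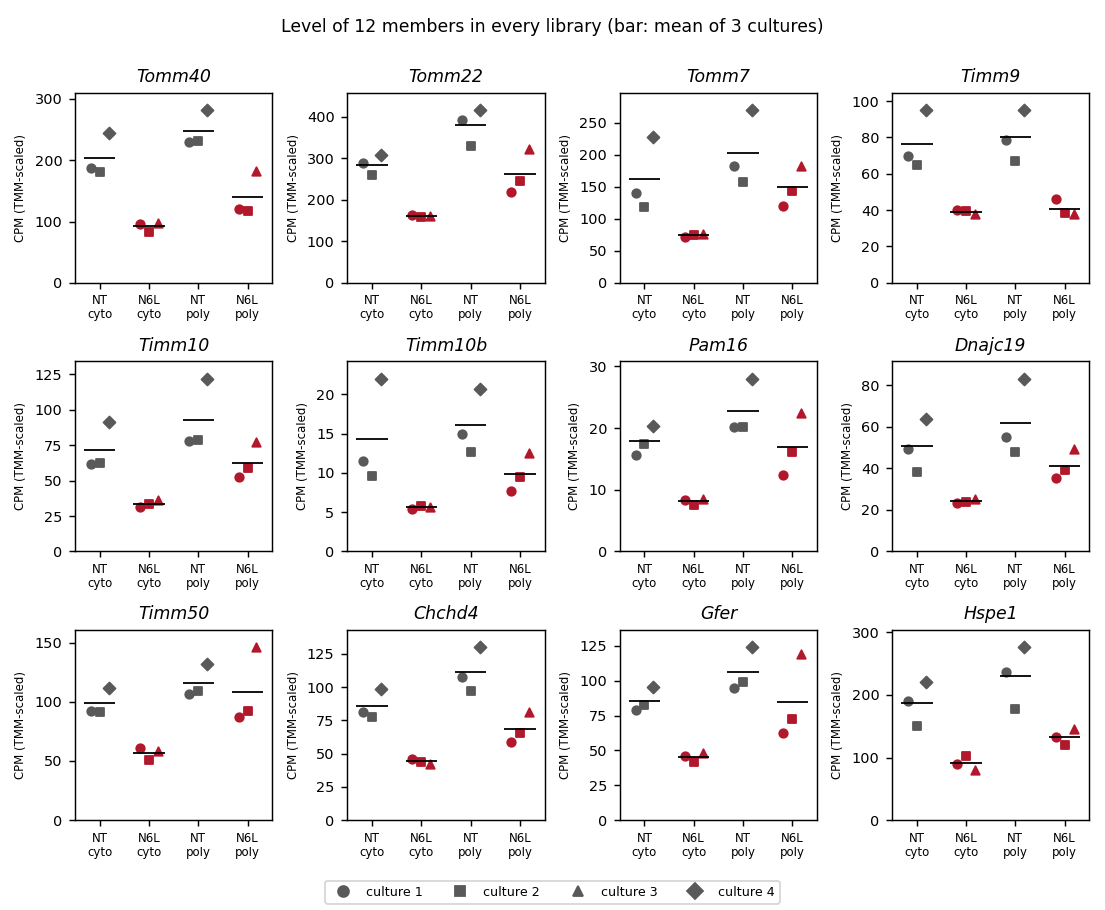
TMM-scaled CPM of the 12 members with the smallest p in the cytoplasm are plotted for every library, with non-treated cultures in grey, N6L cultures in red, a marker shape for each culture number and a bar for the mean of 3 cultures. In the cytoplasm the N6L points lie below all NT points in every panel, and in the polysomes N6L culture 3 is the highest of the treated cultures for most genes but not for Timm9.

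In TIM23, the channel is built from Timm23 with Timm17a or Timm17b, and Timm50 is the receptor on the side of the intermembrane space. Timm50 stood at 92.6, 91.6 and 112 in the NT cytoplasm and at 60.7, 51 and 58.6 in the N6L cytoplasm (-0.80 ± 0.19, adjusted p = 0.00992). Timm17a went from 97.8, 115 and 141 to 82.6, 84.7 and 82.2 (-0.50 ± 0.17, adjusted p = 0.0362), and Timm17b from 30.9, 35.1 and 42 to 21, 23.3 and 25.2 (-0.63 ± 0.26, adjusted p = 0.0767). Both paralogs were lower without overlap, and one of them passed the test. Timm23 changed by -0.48 ± 0.18 and Timm21, a subunit that contacts the TOM complex, by -0.27 ± 0.19, neither past the limit. In TIM22, the insertase of carrier proteins, the channel gene Timm22 changed by -0.44 ± 0.19, whereas Timm29 stood higher in all N6L cultures and changed by 0.32 ± 0.15 (adjusted p = 0.115). Timmdc1, a relative of Tim17 that assembles complex I, changed by -0.56 ± 0.22 (adjusted p = 0.0708).

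Of the SAM complex, the metaxins Mtx1 and Mtx2 were lower. Mtx1 went from 63, 66.3 and 82.7 to 44.5, 41.5 and 47.4 (-0.67 ± 0.18, adjusted p = 0.0178), and Mtx2 from 81.7, 60.2 and 77.4 to 48.2, 52.6 and 51.5 (-0.53 ± 0.16, adjusted p = 0.0287). Samm50, the barrel that inserts other barrels, changed by -0.22 ± 0.18.

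In the PAM motor, the J proteins and their partner were lower, and the other 4 members did not pass the test. Pam16, the J-like partner, stood at 15.7, 17.4 and 20.4 with NT and 8.39, 7.55 and 8.56 with N6L (-1.12 ± 0.22, adjusted p = 0.00369). Dnajc19, a J protein, went from 49.4, 38.4 and 64 to 23.2, 23.7 and 25.3 (-1.07 ± 0.23, adjusted p = 0.00535), and its paralog Dnajc15 from 11.4, 8.76 and 10.3 to 6.63, 6.28 and 6.4 (-0.66 ± 0.23, adjusted p = 0.0429). The Hsp70 of the matrix, Hspa9, ranged from 510 to 922 CPM with NT and from 778 to 866 with N6L, overlapping (0.24 ± 0.30), and the tether Timm44 changed by -0.02 ± 0.13. Of the nucleotide exchange factors, Grpel1 stood at 164, 161 and 222 with NT and 136, 141 and 147 with N6L (-0.37 ± 0.19, adjusted p = 0.145), and Grpel2 at 108, 117 and 81.2 with NT and 117, 134 and 129 with N6L (0.31 ± 0.16, adjusted p = 0.158).

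Both MIA genes were lower. Chchd4, the oxidoreductase that inserts disulfides into incoming proteins, stood at 81.4, 77.9 and 98.7 in the NT cytoplasm and 46.1, 44.1 and 42.6 in the N6L cytoplasm (-0.96 ± 0.17, adjusted p = 0.00228). Gfer, the sulfhydryl oxidase that recharges it, went from 79.2, 82.6 and 95.4 to 46.1, 41.9 and 48.1 (-0.92 ± 0.21, adjusted p = 0.00797). Of the peptidases, Immp2l of the inner membrane peptidase fell, from 7.88, 7.81 and 8.81 to 5.25, 4.95 and 5.19 (-0.67 ± 0.20, adjusted p = 0.0262). Its partner Immp1l, at 20.6, 13.7 and 21.3 against 12.2, 15.7 and 13.3, overlapped (-0.43 ± 0.21). The subunits of the matrix processing peptidase stayed nearer to 0. Pmpca was at 239, 204 and 211 with NT and 172, 176 and 169 with N6L (-0.34 ± 0.13, adjusted p = 0.057), and Pmpcb at 65.2, 67.1 and 63.5 with NT and 65.8, 70.1 and 69 with N6L (0.07 ± 0.12).

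Of the chaperonin genes one was lower in the cytoplasm. Hspe1, the lid of the folding chamber, stood at 190, 150 and 220 with NT and 89.7, 102 and 80.8 with N6L (-1.04 ± 0.19, adjusted p = 0.00271). Hspd1, the chamber itself, stood at 355, 443 and 303 with NT and 405, 370 and 352 with N6L, overlapping (0.03 ± 0.28, adjusted p = 0.938). RefSeq names 23 pseudogenes of Hspd1 and 7 of Hspe1, and the handling of reads with several possible places is not given in the sources used here, which leaves the levels of both uncertain to that extent.

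Of the 21 members lower, 11 were called under each of the 17 alternative settings: Tomm7, Tomm22, Tomm40, Timm9, Timm10, Timm10b, Pam16, Dnajc19, Chchd4, Gfer and Hspe1. Without N6L culture 2, 12 members were lower, and Tomm20, Timm8b, Timm13, Timm17a, Timm50, Mtx1, Mtx2, Dnajc15 and Immp2l lost the call. Without NT culture 4, Tomm20, Timm17a, Mtx1, Mtx2, Dnajc15 and Immp2l lost it.

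The members had short transcripts, with a median of 1783 bases against 2752 over all genes tested. Across the 40 members the cytoplasmic change correlated with transcript length by 0.51 (Spearman's rho), and across all 13867 tested genes with a known length by 0.50, as a description over genes that share the same 12 libraries. Of the 25 members shorter than the median of all genes 15 were lower, and of the 15 longer ones 6. With a correction of each library for length and GC content, 25 of the 40 members were lower and none higher, and the members' median was -0.58. Timm8a1, Timm8b and Immp2l were not called after this correction, and 7 others were. The part of Neat1, of the other nuclear RNAs and of the mitochondrial transcripts in the change was not tested.

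**Figure D3:**
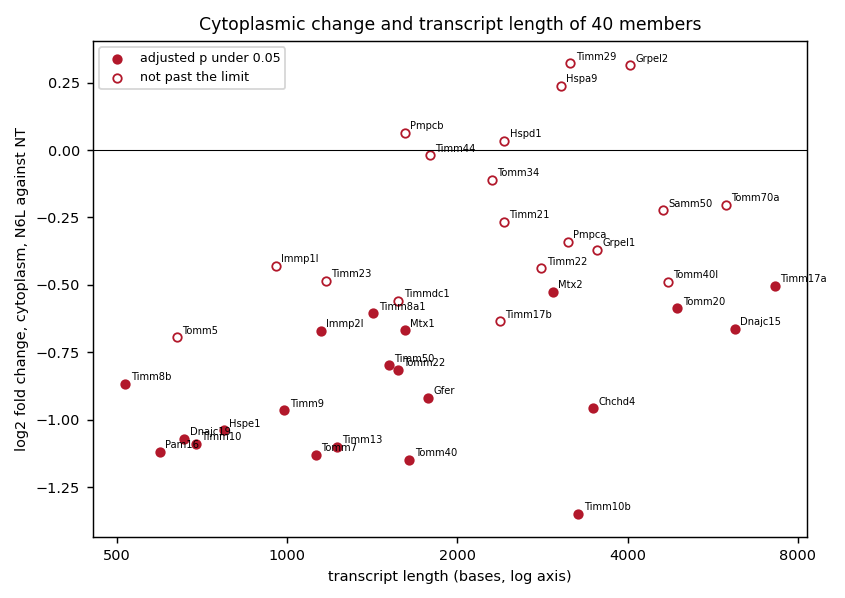
The log2 fold change in the cytoplasm is plotted against transcript length, on a log axis, for the 40 members, and filled points are past an adjusted p of 0.05. Long members such as Timm10b and Chchd4 are among the lower ones, and the 5 members above 0 include none shorter than Pmpcb.

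The second comparison asked the same of the polysomes, that is of the mRNA in translation. Of the 40 members 4 were lower, Timm9, Tomm40, Chchd4 and Hspe1, and none was higher, where 3.66% of all genes tested were lower and 6.01% higher (9.67% in either direction). The NT and N6L cultures are those of the first comparison. Among the members 12 had an unadjusted p below 0.05 (26.5% of all genes), and DESeq2 called 6 lower and Timm29 higher. The members' median was -0.25, that of all genes 0.0, and 34 of the 40 values were below 0 (49.9% of all genes) and 6 above (50.1%). For 11 members every N6L culture lay below every NT culture (11.9% of all genes), and for Timm29 and Grpel2 every one lay above (13.7%).

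Timm9 stood at 78.7, 66.9 and 95.1 CPM in the NT polysomes and at 46, 38.6 and 37.8 in the N6L polysomes, the smallest p of all members (-0.98 ± 0.18, adjusted p = 0.00565). For Tomm40, 229, 231 and 282 compared with 120, 118 and 182 (-0.82 ± 0.19, adjusted p = 0.0178). Chchd4 went from 108, 97.3 and 130 to 58.6, 65.5 and 81.4 (-0.71 ± 0.17, adjusted p = 0.0195), and Hspe1 from 236, 177 and 276 to 133, 120 and 146 (-0.79 ± 0.19, adjusted p = 0.021). In each of the 4 the groups did not overlap, and for Tomm40 and Chchd4 N6L culture 3 came nearest to the NT cultures. These calls depended on single cultures: none of the 4 passed without N6L culture 2, Timm9 alone passed without NT culture 1 or without NT culture 4, Timm9 and Hspe1 passed without N6L culture 1, and 6 members passed without N6L culture 3. In a fit of the polysome libraries alone Timm9 alone passed. After the correction for length and GC content 8 members were lower and Timm29 was higher.

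Tomm22 missed the limit narrowly in the polysomes, at 393, 329 and 416 with NT and 218, 244 and 322 with N6L (-0.54 ± 0.16, adjusted p = 0.0501). Several members that had fallen in the cytoplasm overlapped in the polysomes. Timm50 stood at 107, 109 and 132 with NT and 87.5, 92.5 and 146 with N6L (-0.09 ± 0.19), Gfer at 94.7, 99.2 and 124 against 62.4, 72.7 and 119 (-0.32 ± 0.21), and Pam16 at 20.1, 20.1 and 28 against 12.4, 16.1 and 22.4 (-0.42 ± 0.21). Mtx1 stood at 81.9, 81.1 and 89.6 with NT and 62.8, 72.8 and 105 with N6L (-0.07 ± 0.18), and Immp2l at 8.43, 8.81 and 11.1 against 8.18, 7.29 and 12.2 (-0.04 ± 0.20). The treated culture that lay within or above the NT range was culture 3 for Timm50, Gfer, Pam16, Mtx1 and Immp2l.

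Further members were spread in the same way. Tomm7 stood at 182, 157 and 270 in the NT polysomes and 120, 144 and 183 in the N6L polysomes, and Dnajc19 at 55, 47.7 and 83.2 against 35.4, 39.4 and 49.2. For the small TIM chaperones Timm10 and Timm10b the groups stayed apart. Timm10 stood at 77.7, 78.6 and 122 against 52.4, 58.8 and 77.2 (-0.56 ± 0.22, adjusted p = 0.113), and Timm10b at 15, 12.7 and 20.7 against 7.7, 9.48 and 12.6 (-0.70 ± 0.29, adjusted p = 0.133). Timm29, of TIM22, stood highest relative to the NT polysomes, with a change of 0.49 ± 0.15 (adjusted p = 0.0546).

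Among the paralogs, Tomm40l stood at 63.7, 74.9 and 83.6 in the NT polysomes and 54.9, 65.1 and 105 in the N6L polysomes, Timm17a at 138, 132 and 182 against 119, 127 and 135, and Timm17b at 37.7, 44.9 and 56.6 against 31.7, 42.4 and 73.1. All 3 overlapped between treatments. Dnajc15 stood at 13, 10.3 and 17.7 against 7.19, 9.17 and 12.2, Mtx2 at 81.2, 67 and 86.3 against 62.1, 72.3 and 55.1, and Timm8b at 154, 130 and 204 against 101, 132 and 179. These overlapped as well. Timm8a1 stood at 11.6, 8.71 and 9.31 against 8.66, 8.75 and 7.52, Immp1l at 23.3, 17 and 23.4 against 15, 21 and 19.1, and Grpel1 at 210, 197 and 287 against 176, 205 and 252. Grpel2 was the pair member that lay higher in all N6L cultures, at 117, 115 and 87.2 against 128, 139 and 131. Pmpca lay lower in all of them, at 229, 231 and 252 against 178, 185 and 191 (-0.36 ± 0.13, adjusted p = 0.0856), and Pmpcb, at 75.3, 72.5 and 74.1 against 79.6, 72.9 and 77.4, did not separate. Hspd1 stood at 380, 365 and 242 with NT and 352, 253 and 135 with N6L (-0.41 ± 0.28), N6L culture 3 lowest.

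The third question was how each mRNA was spread between polysomes and cytoplasm relative to other mRNAs. Libraries were scaled to a common level, so a loss of all mRNAs alike from the polysomes would not appear in the ratio. Higher or lower in polysomes is meant below in that relative sense. In NT cells none of the 40 members differed between polysomes and cytoplasm past the limit, nor did any with DESeq2. With edgeR 0.209% of all genes were called, all of them lower in polysomes. An unadjusted p below 0.05 was found for 8 members (13.4% of all genes), with the smallest for Tomm20 and Tomm22. The log2 ratio of polysome to cytoplasm was above 0 in all 3 NT cultures for 31 members (31.6% of all genes), and below 0 in all 3 for Tomm70a and Timm8a1 (27.7%). The members' median was 0.30, and that of all genes 0.03.

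In N6L cells 25 of the 40 members were higher in polysomes than in cytoplasm and none lower, where 18.4% of all genes were higher and 20.6% lower (39.0% in either direction). An unadjusted p below 0.05 was found for 27 members (49.6% of all genes), among them Hspd1 as the one that was lower, and DESeq2 called 27 higher and none lower. The ratio was above 0 in all 3 N6L cultures for 35 members (37.6% of all genes), and the members' median was 0.62 (0.03 for all genes). Those called were 6 of 7 of the TOM complex, 4 of 6 small TIM chaperones, 4 of 5 of TIM23, 1 of 2 of TIM22, Timmdc1, 2 of 3 of SAM, 3 of 7 of PAM, both of MIA, 1 of 4 peptidases and Hspe1. Timm13 was highest, at 1.28 ± 0.29 (log2, SE; adjusted p = 0.00684), followed by Tomm5 at 1.09 ± 0.25 and Timm17b at 1.08 ± 0.26. At the other end Hspd1 stood at -0.61 ± 0.28, Hspa9 at -0.48 ± 0.30 and Tomm70a at -0.41 ± 0.20. When the 2 fractions of a lysate were paired by a term for the culture (block), 28 members were higher and these 3 were lower. Without N6L culture 3 there were 6 members higher, and without N6L culture 2 there were 7, while Timm17b and Timm50 were called under each of the 17 alternatives. After the correction for length and GC content 23 were higher, and Tomm40 (-0.03) and Hspe1 (-0.02) turned to the other side of 0. Without that correction 61 of 77 mitochondrial ribosomal proteins (79.2%) were higher in N6L cells and none lower, with a median of 0.71. Of 79 nuclear-encoded subunits of the respiratory chain and ATP synthase 66 (83.5%) were higher and none lower (median 0.93). The shift was therefore not particular to the import genes.

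The cultures differed in this ratio. The members' median log2 ratio was 0.28, 0.26 and 0.32 in NT cultures 1, 2 and 4, and 0.38, 0.56 and 0.91 in N6L cultures 1, 2 and 3, so that the treated cultures lay above the NT cultures and were further apart from each other. The median of all genes lay between -0.02 and 0.06 in the 6 cultures. Over all genes the ratio correlated with transcript length by -0.45, -0.40 and -0.37 in the NT cultures and by -0.64, -0.56 and -0.58 in the N6L cultures (Spearman's rho, across genes).

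**Figure D4:**
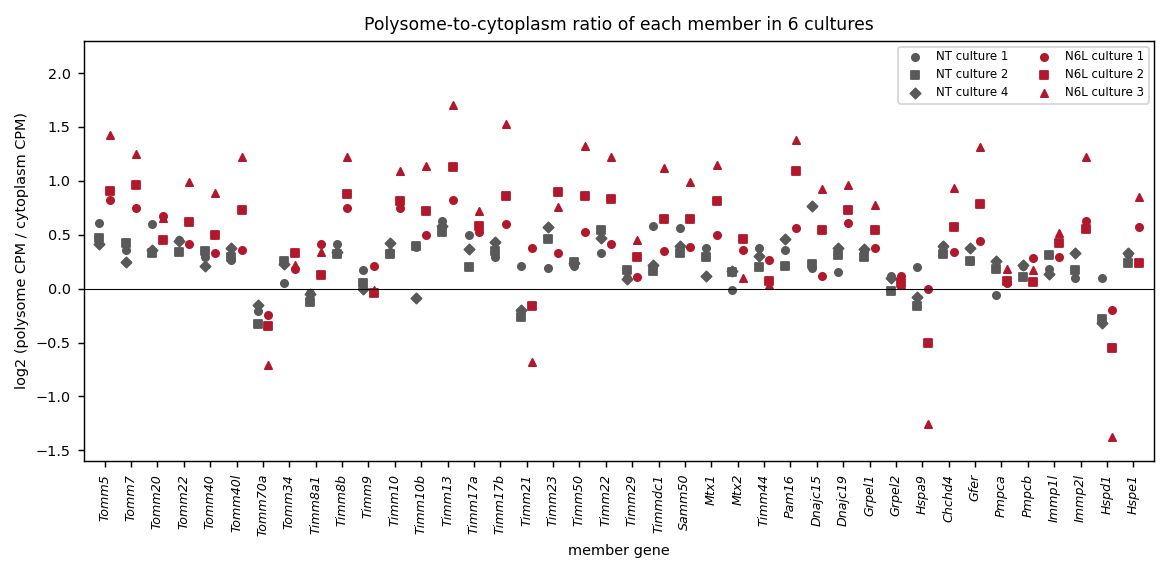
The log2 ratio of polysomal to cytoplasmic CPM is plotted for the 40 members tested in the 3 NT cultures (grey) and the 3 N6L cultures (red), with a marker shape for each culture number. N6L culture 3 has the highest ratio for most members and the lowest for Hspa9, Hspd1, Tomm70a, Timm21 and Timm44.

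The translational index is the difference of these ratios between N6L and NT, tested as 1 contrast over the same 12 libraries as the other comparisons. None of the 40 members passed the limit, and none of the 13889 genes did (0.0%), with edgeR, and DESeq2 called no member. An unadjusted p below 0.05 was found for 4 members, Timm50, Mtx1, Pam16 and Immp2l, where 7.73% of all genes had one. The members' median index was 0.27 (log2), that of all genes 0.01, and 32 of 40 values were above 0 (50.7% of all genes) and 8 below (49.3%). The median index was 0.38 for the mitochondrial ribosomal proteins and 0.54 for the respiratory chain and ATP synthase subunits, with none called in either set. For 16 members every N6L ratio lay above every NT ratio (15.3% of all genes) and for none did every one lie below (14.4%).

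Timm50 had log2 ratios of 0.21, 0.25 and 0.24 in the NT cultures and 0.53, 0.86 and 1.32 in the N6L cultures, an index of 0.71 ± 0.27 (adjusted p = 0.555). Pam16 had 0.36, 0.21 and 0.46 against 0.56, 1.09 and 1.38 (0.70 ± 0.30), Mtx1 0.38, 0.29 and 0.12 against 0.50, 0.81 and 1.15 (0.60 ± 0.26), and Immp2l 0.10, 0.17 and 0.33 against 0.63, 0.55 and 1.22 (0.63 ± 0.29). In each of the 4 the groups did not overlap, and the exact two-sided permutation test gave p = 0.1, the smallest that 3 cultures against 3 allow. Timm8a1 lay below 0 in each NT culture and above 0 in each N6L culture, with ratios of -0.04, -0.12 and -0.05 in the NT cultures and 0.41, 0.13 and 0.34 in the N6L cultures. Timm9 had ratios close to 0 in most cultures, at 0.17, 0.05 and 0.00 against 0.21, -0.04 and -0.01, with an index of -0.01 ± 0.25. Hspa9 (-0.45 ± 0.43) and Hspd1 (-0.45 ± 0.39) had the lowest indices, with N6L culture 3 at -1.26 and -1.38.

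The first 30 transcribed bases are shown for the members that hold AANATGGCG in them on the strand of the gene, the core of TISU, an element at the start codon of mRNAs with a very short leader, because Timm50 and Mtx1 of the preceding paragraph were among them. Capitals mark the core. The stretches are chr3:89213878-89213907 on the minus strand for Mtx1, chr15:84192240-84192269 on the plus strand for Samm50, chr8:4275876-4275905 on the minus strand for Timm44 and chr7:28312017-28312046 on the minus strand for Timm50 (RefSeq, GRCm38.p6).
Mtx1: agagagcgtacAAGATGGCGgcgcccatgg
Samm50: aggtggtacAACATGGCGgcgctcggcacg
Timm44: cacacgggctcttccAACATGGCGgcggca
Timm50: ggcgtcagcgcAAGATGGCGgcctcggcgg

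The core was in 4 of the 35 members with a window (11.4%) and in 135 of the 10092 genes (1.34%). In Mtx1 and Timm50 the core is the same bases as the YY1 match counted above, so these members count in both shares. The index was 0.71 for Timm50, 0.60 for Mtx1, 0.28 for Samm50 and -0.17 for Timm44, so the 4 lay on both sides of 0. Over the 135 genes with the core the median index was -0.03.

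The ratio of the counts of 2 members within a library does not depend on how libraries are scaled, and it was taken for 10 pairs in each fraction, 20 comparisons. It was not corrected for transcript length, which can differ within a pair. Hspd1 had 2423 bases and Hspe1 774, Tomm40 1646 and Tomm40l 4712, and Pmpca 3135 and Pmpcb 1615. The part of length in these ratios was not tested. With 3 cultures against 3 the exact two-sided permutation test allows no p below 0.1, and after adjustment over the 20 the smallest was 0.286 (Benjamini-Hochberg), so none passed. Hspd1 over Hspe1 had log2 ratios of 0.90, 1.56 and 0.47 in the NT cytoplasm and 2.17, 1.86 and 2.12 in the N6L cytoplasm, with means of 0.98 ± 0.55 and 2.05 ± 0.17 (SD, n = 3, exact p = 0.1) and no overlap. In the polysomes the same ratio overlapped, at 0.69, 1.05 and -0.19 against 1.41, 1.07 and -0.11. The polysome means were 0.51 ± 0.63 and 0.79 ± 0.80 (SD), and the difference between the fractions was not tested.

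Tomm40 over Tomm40l was 1.83, 1.57 and 1.92 in the NT cytoplasm and 1.15, 1.08 and 1.12 in the N6L cytoplasm, and 1.85, 1.62 and 1.75 against 1.12, 0.85 and 0.79 in the polysomes. The ratio was thus lower with N6L in both fractions without overlap, by -0.66 and -0.82 on the log2 scale. Pmpca over Pmpcb was lower in both too, by -0.40 and -0.41. Grpel1 over Grpel2 was 0.61, 0.47 and 1.45 in the NT cytoplasm and 0.22, 0.07 and 0.19 in the N6L cytoplasm, a difference of -0.68 without overlap, and overlapped in the polysomes (-0.46). Dnajc15 over Dnajc19 was higher with N6L in the cytoplasm (0.39, without overlap) and differed by 0.04 in the polysomes. The ratios of Timm17a to Timm17b, Immp1l to Immp2l, Mtx1 to Mtx2, Timm8a1 to Timm8b and Timm10 to Timm10b overlapped between treatments in the cytoplasm, with differences of -0.15 to 0.26.

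**Figure D5:**
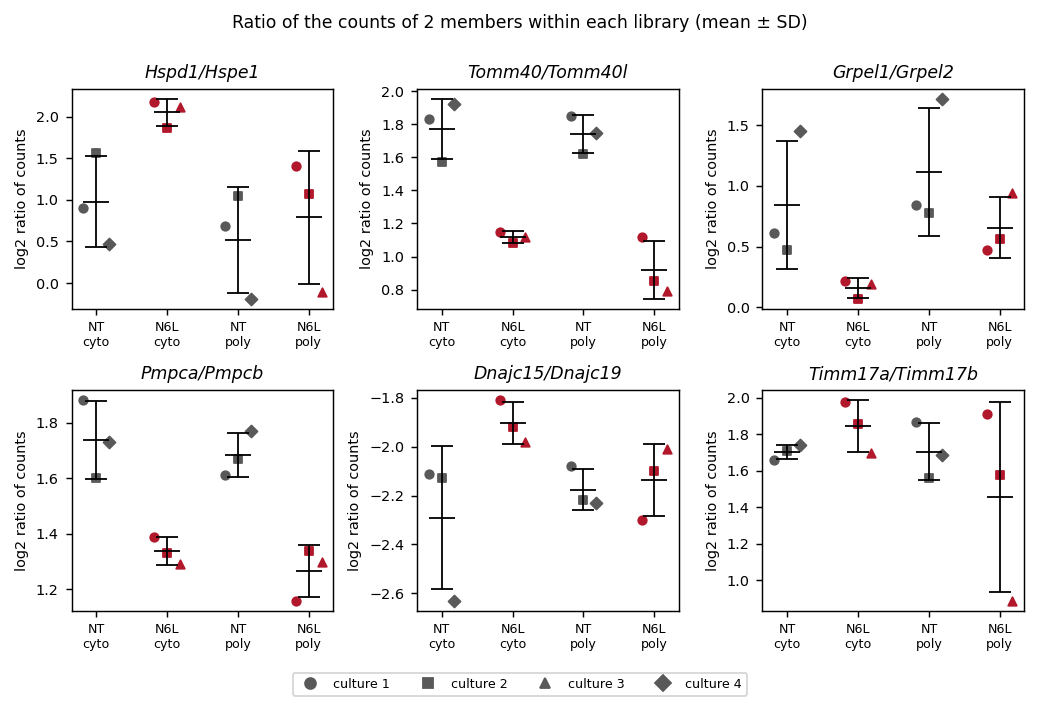
The log2 ratio of the counts of 2 members within each library is plotted for 6 pairs, with grey points for non-treated and red points for N6L cultures, a marker shape for each culture number and bars for the mean ± SD of 3 cultures. The ratio of Hspd1 to Hspe1 lies higher with N6L without overlap in the cytoplasm and overlaps in the polysomes, and that of Tomm40 to Tomm40l lies lower without overlap in both fractions.

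Compared per length of transcript, in CPM per kilobase, the chaperonin lid Hspe1 (241), Timm8b (246) and Hspa9 (225) had the highest means in the NT cytoplasm and Dnajc15 (1.64) the lowest of the members tested. Within TOM, Tomm22 (181), Tomm5 (149), Tomm7 (144) and Tomm40 (124) lay far above Tomm70a (20.7), Tomm20 (20.5) and Tomm40l (12.6). In the N6L cytoplasm Hspa9 (266) and Hspd1 (155) led, with Timm8b at 135 and Hspe1 at 117. These values rest on 1 annotated transcript per gene, chosen as coding, principal and then longest. It had 1646 bases for Tomm40 and 4712 for Tomm40l, whose means in the NT cytoplasm were 204 and 59.5 CPM. For Dnajc15 it had 6193 bases, and its mean of 10.2 CPM was above the 8.17 CPM of Immp2l. Which transcripts the cells made was not tested.

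The genes that the machinery serves or works with were taken from lists of related genes, and their counts stand beside 13.8% of all genes lower and 14.5% higher. Of 14 tested MIA substrates, the small cysteine-rich proteins that Chchd4 oxidizes, 12 (85.7%) were lower in the cytoplasm with N6L and none higher, with a median log2 change of -0.95 (edgeR). Chchd10 changed by -1.73 ± 0.21 (adjusted p = 0.000613), Cox17, the copper chaperone of cytochrome oxidase, by -1.48 ± 0.33 and Chchd1 by -0.95 ± 0.23. Of the MICOS complex, which shapes the cristae, 5 of 7 (71.4%) were lower (median -0.84), with Chchd3, another protein of twin cysteine motifs, at -0.69 ± 0.14. Of the mitochondrial proteases and prohibitins 6 of 12 were lower and 1 higher (8.33%), with Htra2 at -0.95 ± 0.17, Phb at -0.92 ± 0.19 and Phb2 at -0.88 ± 0.19.

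Other factors of import and export were near 0 at the median. Of 12 tested, 1 in each direction (8.33%) was called, a share below that of all genes: Cox18 was lower (-0.74 ± 0.14), the peptidase Xpnpep3 higher (0.94 ± 0.27) and the median was -0.05. Of the 8 cytosolic chaperones that keep precursors unfolded, Stip1 (-0.46 ± 0.14) and Hspa8 (-0.53 ± 0.18) were lower (25.0%), and Hsp90aa1 changed by 0.83 ± 0.31 (adjusted p = 0.0599). Of 3 matrix partners Hscb (33.3%) was lower (-0.84 ± 0.17). The large sets of imported proteins had medians below that of the machinery, at -0.71 for the mitochondrial ribosomal proteins (54 of 77 or 70.1% lower, none higher) and -0.82 for the nuclear-encoded subunits of the respiratory chain and ATP synthase (52 of 79 or 65.8% lower, 1 higher). In the polysomes, where 3.66% of all genes were lower, 3 of the 14 MIA substrates (21.4%), 6 of 77 mitochondrial ribosomal proteins (7.79%) and 1 of 79 respiratory subunits (1.27%) were lower. So were 2 of 7 of MICOS (28.6%), 2 of 8 cytosolic chaperones (25.0%) and 1 of 12 other factors of import and export (8.33%). None of the proteases and prohibitins or of the matrix partners was. The MIA and respiratory lists share Cox6b1, Ndufs5, Ndufb7 and Ndufa8. Ndufs5 was 1 of the 3 MIA substrates and also the 1 respiratory subunit. Its level was near 0, with means of 0.503 CPM in the NT polysomes and 0.0871 CPM in the N6L polysomes.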

How the data were processed

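RNA of 12 libraries (cytoplasm and polysomes of 3 NT and 3 N6L cultures) was sequenced on polyA+ stranded libraries. Per the submitters' processing notes the tools were STAR and HTSeq 0.5.3 (genome mm10), and the values deposited by the authors are raw counts per gene, not normalized, in 4 technical replicates a library. Which annotation, strand setting and rule for multiple matches HTSeq used is not given in the sources used here. Technical replicates were summed, since they differed by about the sampling noise (a chi-square to degrees-of-freedom ratio of 1.016 to 1.0439). For 3 replicates of the N6L cytoplasm (culture 2 by title) another label gives culture 1, and an alternative leaves them out. Symbols, coordinates and transcript lengths came from GENCODE vM21, promoter windows from RefSeq (GRCm38.p6).

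After filterByExpr and TMM scaling, edgeR 4.0.16 (glmQLFit, glmQLFTest, R 4.3.3) was fitted with 1 mean for each of 4 groups over all 12 libraries. P-values were adjusted by Benjamini-Hochberg over 13889 genes, limit 0.05. DESeq2 1.42.0 was the alternative tool. Log2 ratios per culture used CPM with a prior count of 2, and pair ratios counts plus 0.5. The labels do not say how independent the cultures were, so p-values between treatments refer to these cultures alone. They rest on 1 estimate of the spread per gene, shared by all 12 libraries of both fractions. The 2 fractions of a culture thus count as independent libraries there too. With only the compared groups fitted, 29 members were lower in the cytoplasm and 1 in the polysomes, against 21 and 4. For polysomes against cytoplasm and for the index, the main edgeR fit took the 2 fractions of a lysate as independent libraries. Its p-values there do not measure the spread of the ratio between cultures, and pairing by culture (block) was an alternative.

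The members and lists were chosen with earlier results of these data known. All 41 members are named. Library values are given for the 12 smallest p in the cytoplasm, the 4 smallest in the polysomes and for the translational index, and the paralog pairs, and of related lists at most the 3 smallest p in each direction. The CCAAT motif, the TISU core and genes named beyond this rule were chosen after their values were seen.

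The fractions of 1 culture are paired because they come from 1 lysate. The correlation of deviations from group means between them was 0.364, 0.452 and 0.645 for NT (cultures 1, 2, 4) and 0.037, 0.199 and 0.229 for N6L (cultures 1, 2, 3).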

Additional observations from a re-analysis of the deposited data

How the results depend on the processing

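In the cytoplasm 12 to 22 members were lower when each culture was left out in turn. With library totals alone 1 was higher, and the members' median was -0.45 while that of all genes moved to 0.19. In the polysomes 0 to 6 were lower with a culture left out, 1 in a fit of the compared groups alone, 8 with the length and GC correction and 9 with that correction and the replicate block. One was higher there with library totals alone, with at least 10 counts in every library, with DESeq2 and with the length and GC correction (1 in each). In NT cells the median ratio of polysome to cytoplasm was 0.22 with library totals alone, 0.17 with the length and GC correction and 0.18 with the block added, which also called 2 members higher, and 0.26 to 0.31 with a culture left out. In N6L cells 6 to 26 were higher and 0 to 1 lower with a culture left out, and 2 were lower with no filter, 3 with the replicate block and 1 with the block and the correction. Tomm40 (-0.03 and -0.03) and Hspe1 (-0.02 and -0.01) turned in N6L cells under the length and GC correction without and with the block. The cause of these changes was not tested. With technical replicate a alone 3 pair differences moved, Timm17a to Timm17b in the cytoplasm to 0.00 and, in the polysomes, Dnajc15 to Dnajc19 to 0.27 and Timm10 to Timm10b to 0.39.

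Treated and NT cultures share only a number, and same-numbered cultures 1 and 2 correlated by 0.228 and 0.045 in the cytoplasm and by 0.296 and 0.008 in the polysomes. With that number as a replicate block 24 members were lower in the cytoplasm and 5 in the polysomes, against 21 and 4 without it. The index had 0 calls with the block. Members not called changed sign in some settings, Hspd1 and Timm44 in the cytoplasm among them, and no called change in the cytoplasm or in the polysomes between treatments did.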
